A study of Homo sapiens with 8 samples.

Results

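The genes described here are those that separated the first from the second biological replicate of sorted human endothelial and blood precursor cells, in the same direction at day 4 and at day 6 of differentiation. For each gene the value of replicate 2 was subtracted from that of replicate 1 within each day, on the scale log2(intensity + 32), where a difference of 1 is 2-fold. A gene was a member if this difference was at least 2-fold at both days, on the same side. Of 13642 genes that exceeded the median of the array on 2 or more of the 8 arrays, 260 (1.91%) were members with the higher level in replicate 1 and 173 (1.27%) with the higher level in replicate 2. Before the filter on dim genes the counts were 261 and 173, so 1 member was lost to it. The members were thus chosen by the intensities of these 4 arrays, and the differences at days 4 and 6 are given as a description with no test. The arrays of day 8 and day 0 entered the filter on dim genes. They also entered the choice of 1 probe set per gene, mainly by mean intensity over all 8 arrays. The replicate differences of day 8 and day 0, those of the other probe sets and the promoter sequences took no part in the choice.

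All 8 arrays hold RNA of the established human embryonic stem cell line H9. Day 0 is the undifferentiated, unsorted line on 2 arrays. Day 4, day 6 and day 8 are cells that carry both KDR and CD31, sorted by flow cytometry from cultures driven toward blood in serum-free StemPro34 medium with bone morphogenetic protein 4, with 2 arrays each. The labels call the 2 arrays of a group biological replicates and do not say whether replicates of equal number came from the same culture, and the growth protocol names a further line, H1, kept like H9 on mitotically inactivated mouse fibroblasts. For 3 arrays, replicate 2 of day 6 and both of day 8, the source name gives day 4, whereas title, description and stage give the later day, which was used. Sorting means that the day 0 cells differ from the others in the gate as well as in age, and that no sorted array describes the whole culture.

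KDR is the main receptor for vascular endothelial growth factor, and CD31, the product of PECAM1, is a junction protein of endothelium and platelets. Cells with both include the endothelium from which the first blood cells bud in the embryo. Such endothelium stops dividing as it takes on arterial identity under Notch signalling, makes a basement membrane, and lies beside the yolk sac endoderm, which secretes plasma proteins, and beside mesenchyme, which makes fibrillar collagen. The lists of genes below follow these programmes.

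The gate genes were bright on every sorted array. KDR stood at 13.65 and 13.79 in replicates 1 and 2 of day 4, 13.55 and 13.76 on day 6, 13.87 and 13.59 on day 8, and 9.02 and 9.24 on day 0. PECAM1 stood at 12.85 and 13.14, 12.53 and 13.59, and 13.18 and 13.34 at the same days, against 6.77 and 6.38 on day 0. Of 34 endothelial genes with a probe set, 30 lay above the array median on all 6 sorted arrays. NANOG, a factor of undifferentiated cells, lay between 6.39 and 6.68 on the sorted arrays, below the array medians, and at about 12 on both day 0 arrays. A second NANOG probe set lay between 6.71 and 7.22 on the sorted arrays, above the array median on 4 of the 6, and at 9.54 and 9.56 on day 0. Both replicates of each day thus carried the transcripts of the gate.

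Day 4 and day 6 shared much of their replicate difference. At day 4, 566 genes (4.15%) were at least 2-fold higher in replicate 1, and 531 of them (93.8%) were also higher in replicate 1 on day 6. Of 357 genes (2.62%) at least 2-fold higher in replicate 2 on day 4, 315 (88.2%) were also higher there at day 6. At day 6 the counts were 746 (5.47%) and 532 (3.9%). Opposite 2-fold differences at the 2 days were found for 1 gene (0.00733%) higher in replicate 1 on day 4, the lipoprotein receptor VLDLR, and for 3 genes (0.022%) higher in replicate 2 on day 4, namely LRRN4, PTGS2 and SELE. Across the 13642 genes the differences of day 4 and day 6 correlated with Pearson's r = 0.60, a description in which the points share 4 arrays. By any amount, 6039 genes (44.3%) were higher in replicate 1 at both days and 3320 (24.3%) in replicate 2, around medians over all genes of 0.12 on day 4 and 0.07 on day 6.

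**Figure D1:**
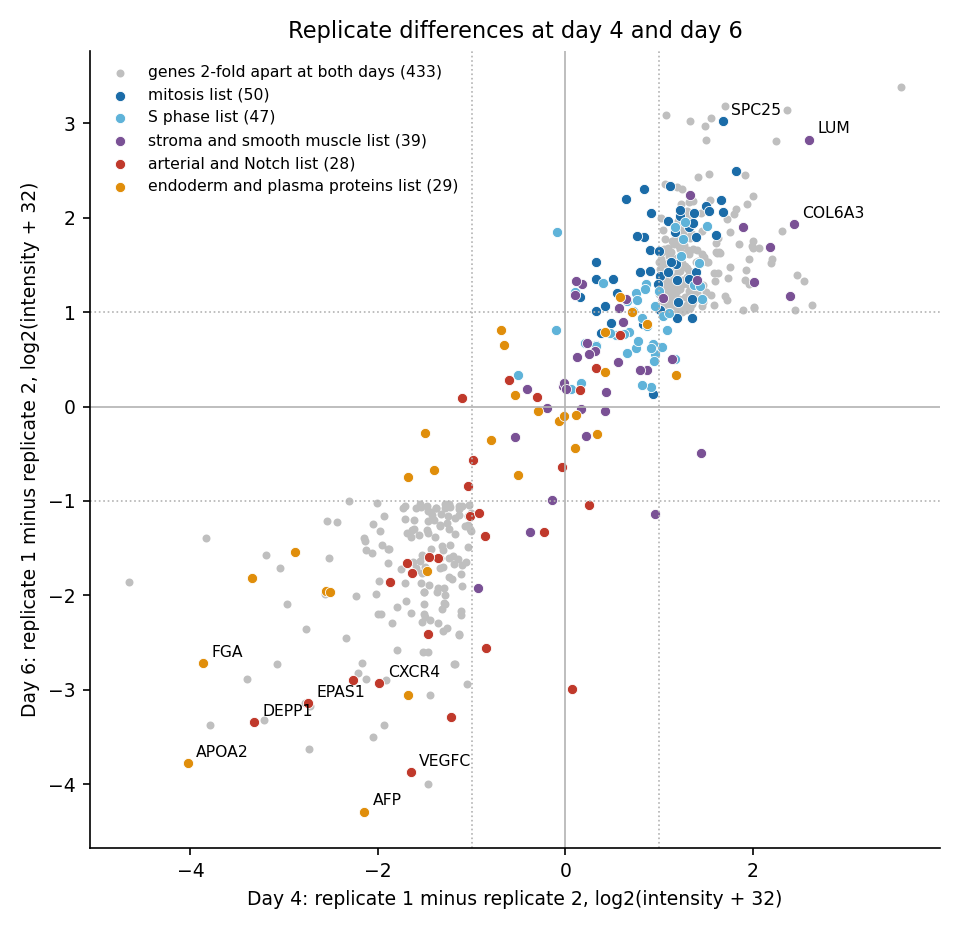
Each point is a gene, with its difference between replicate 1 and replicate 2 on day 4 on the x axis and at day 6 on the y axis, in log2(intensity + 32); grey points are the 433 members, coloured points all kept genes of 5 lists, and dotted lines mark 2-fold. Genes of the mitosis and S phase lists lie in the upper right and most genes of the arterial list in the lower left, with APOA2 near -4.03 and -3.78.

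Of the 13642 genes kept, 544 were on one of 22 gene lists and 97 on the mitosis or S phase list. Of the 260 members higher in replicate 1, 54 were on a list and 37 of these on the mitosis or S phase list. Of the 173 higher in replicate 2, 34 were on a list and 0 on those of the cell cycle. Most members, 206 and 139, were thus on no list. Their mean differences ran from 1.01 to 3.48 for the first set, with a median of 1.39, and reached -3.90 for the second, with a median of -1.67. Just inside the limit lay RACGAP1, which acts in cytokinesis, with 1.00 and 1.64, then C3orf52 with 1.00 and 1.19, EXOC6 with 1.09 and 1.00, and PCOLCE with 1.24 and 1.00. Just outside lay ZCCHC2 with -1.30 and -1.0, ACTL6A with 1.04 and 1.00, GUCA1A with 1.00 and 1.12, and HYAL2 with -1.0 at both days.

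Other probe sets of the members, whose differences did not choose them, gave a second reading of the same RNA. Only those that passed the filter on dim genes were counted. Bright arrays of the higher replicate alone could let a probe set pass, which favours agreement. Of the 260 genes, 126 had 214 further probe sets, and 171 of these (79.9%) were higher in replicate 1 at both days, 51 of them by 2-fold. Of the 173 genes, 95 had 199 further probe sets, and 153 (76.9%) were higher in replicate 2 at both days, 67 of them by 2-fold. In the opposite direction at both days were 12 and 17 probe sets. Among all genes kept, 44.3% were higher in replicate 1 at both days and 24.3% in replicate 2. The share for further probe sets of all genes kept was not computed, so 79.9% and 76.9% have no matched comparison. Some probe sets of a gene read other transcript ends or hardly respond, so a gene's value depends on the probe set used.

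Genes of cell division were higher in replicate 1. All 50 genes of the mitosis list (cyclins, kinetochore, spindle and cytokinesis genes) were higher in replicate 1 at both days, and 28 were members. Their median difference was 1.11 on day 4 and 1.52 on day 6. Of 47 S phase genes (replication licensing, polymerases, nucleotide supply), 44 were higher in replicate 1 at both days and 9 were members, with medians of 0.85 and 0.85. None of either list was 2-fold higher in replicate 2 at both days. Of all genes kept, 44.3% were higher in replicate 1 at both days and 1.91% were members on that side. The summed intensity of the mitosis list, in units of 1000, was 151 in replicate 1 and 71.4 in replicate 2 of day 4, and 158 and 51.7 on day 6, against 134 and 131 on day 0.

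SPC25, NDC80 and NUF2 encode 3 of the 4 subunits of the NDC80 complex, which ties kinetochores to spindle microtubules. SPC25 stood at 10.58 and 8.90 in replicates 1 and 2 of day 4, 10.98 and 7.96 on day 6, 8.70 and 7.91 on day 8, and 9.93 and 9.86 on day 0. NDC80 stood at 11.46 and 9.64, 11.81 and 9.31, 9.95 and 9.10, and 10.90 and 10.88 at the same days. NUF2 stood at 11.42 and 9.76, 11.46 and 9.27, 9.82 and 9.39, and 10.50 and 10.49. For all 3 genes the replicate 1 arrays of days 4 and 6 lay above day 0, and the replicate 2 arrays and both day 8 arrays lay below it. SPC24, which encodes the fourth subunit, was also a member higher in replicate 1. CDC25C, the phosphatase that activates CDK1, differed by 1.68 and 2.06. TTK, the checkpoint kinase also called MPS1, differed by 1.5 and 2.13. HMMR, a spindle protein that also binds hyaluronan, differed by 1.53 and 2.07.

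Members of the S phase list had several roles in replication and its control. GINS2, a subunit of the replicative helicase, had the largest mean difference of the list and stood at 11.62 and 10.11 on day 4, 11.46 and 9.55 on day 6, 10.44 and 9.72 on day 8, and 11.36 and 11.27 on day 0. RRM2, the regulated subunit of ribonucleotide reductase, stood at 12.91 and 11.74, 13.32 and 11.42, 12.24 and 11.67, and 12.61 and 12.51. In both genes the replicate 2 arrays of days 4 and 6 and both day 8 arrays were lower than the other 4. ATAD2, a chromatin ATPase, differed by 1.25 and 1.78. POLE2, a subunit of DNA polymerase epsilon, differed by 1.42 and 1.52, and the repressor E2F8 by 1.23 and 1.59. The G1 list of cyclins, CDK inhibitors and p53 targets, with 22 genes, had 10 genes higher in replicate 1 at both days and 5 in replicate 2, with medians of 0.04 and 0.16. Averaged over all their probe sets, CDC25C differed by 0.76 instead of 1.87 and GINS2 by 0.77 instead of 1.71.

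Promoters of 2 mitosis genes, HMMR and SPC25, and of 2 S phase genes, GINS2 and RRM2, are shown, since these genes differed together. Each stretch is the 100 bases before an annotated start site in RefSeq (GRCh38.p14), from -100 to -1, 5′ to 3′ on the gene's strand. Capitals mark matches, on either strand, to TTTGAA (the cell cycle homology region, CHR, bound by the MuvB complex in mitotic promoters), to CCAAT (bound by NF-Y), or to the E2F letters TTTCGCGC, TTTGGCGC and TTTCCCGC. In HMMR the first bases of the matches are at -95 and -69 for CCAAT and at -28 and -22 for the CHR, the latter adjoining each other. GINS2 holds an E2F match. SPC25 and RRM2 do not differ in these marks, as each holds 2 CCAAT matches and neither CHR nor E2F letters in this stretch. Where matches overlap, only the first is in capitals.
HMMR, chr5:163460532-163460631, plus strand: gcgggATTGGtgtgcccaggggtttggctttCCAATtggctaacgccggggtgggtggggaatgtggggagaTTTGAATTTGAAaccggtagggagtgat
SPC25, chr2:168890431-168890530, minus strand: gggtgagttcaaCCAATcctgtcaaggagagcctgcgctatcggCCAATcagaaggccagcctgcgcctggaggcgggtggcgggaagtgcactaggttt
GINS2, chr16:85688955-85689054, minus strand: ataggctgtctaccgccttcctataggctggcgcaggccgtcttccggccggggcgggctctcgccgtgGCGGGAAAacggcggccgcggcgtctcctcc
RRM2, chr2:10122639-10122738, plus strand: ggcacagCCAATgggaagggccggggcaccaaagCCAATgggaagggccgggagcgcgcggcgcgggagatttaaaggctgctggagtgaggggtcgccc

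Over windows from 250 bases before to 50 after a start site, the CHR letters were in 35 of 53 windows of the mitosis list (66.0%) and in 1 of 54 windows of the S phase list (1.85%), beside 15.2% of all 35116 windows and 10.7% of those of the genes kept. E2F letters were in 22 of 54 S phase windows (40.7%) and in 5 of 53 mitosis windows (9.43%), beside 2.74% of all windows. CCAAT was in 75.5% of mitosis and 53.7% of S phase windows, beside 34.6% of all. Windows were found for 43 of 50 and 40 of 47 genes. Over all members the CHR letters were in 21.7% of 300 windows of the genes higher in replicate 1 and in 16.6% of 211 windows of those higher in replicate 2, and without the genes of both cell cycle lists the first share was 17.9%. CCAAT was in 48.0% and 34.6% of these windows. A match describes letters and not a binding site, and alternative starts of a gene share bases.

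Cholesterol synthesis genes were also higher in replicate 1. Of 17 genes kept, 13 were higher in replicate 1 at both days and 4 were members, beside 44.3% and 1.91% of all genes. The medians of the list were 0.75 and 1.03. HMGCS1, the enzyme before the rate-limiting step of the pathway, stood at 11.54 and 10.35 on day 4, 12.20 and 9.87 on day 6, 10.62 and 10.36 on day 8, and 10.65 and 10.52 on day 0. INSIG1, which retains the sterol sensor in the endoplasmic reticulum, stood at 11.66 and 10.36, 12.22 and 10.15, 10.68 and 10.48, and 10.32 and 10.39. In both genes the 2 replicate 1 arrays of days 4 and 6 were above the other 6 arrays, which lay between 9.87 and 10.68. EBP, a sterol isomerase, differed by 1.40 and 1.66, and HSD17B7 by 1.09 and 1.51. Averaged over all their probe sets, HMGCS1 differed by 1.02 instead of 1.76 and EBP by 0.98 instead of 1.53. ACAT2 and TMEM97, a thiolase and a sterol-regulated membrane protein that were on no list, were members too. Of 34 cytosolic ribosomal protein genes, 25 were higher in replicate 1 at both days and 1 in replicate 2, with medians of 0.17 and 0.23. Of 37 oxidative phosphorylation genes, 22 were higher in replicate 1 and 3 in replicate 2, with medians of 0.29 and 0.51, beside 44.3% and 24.3% of all genes kept. Neither list held a member, and at 1.91% of all genes lists of this length would hold few.

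Genes of stroma and smooth muscle were unevenly higher in replicate 1. Of 39 genes kept, 25 were higher in replicate 1 at both days, 9 of them by 2-fold, beside 44.3% and 1.91% of all genes. In replicate 2, 5 were higher, with 0 by 2-fold, beside 24.3% and 1.27%. The medians were 0.43 and 0.50, and the summed intensity of the list in units of 1000 was 102 and 81.4 at day 4, 89.5 and 73.1 on day 6, 77.8 and 74.6 on day 8, and 140 and 138 on day 0. Of 41 genes with a probe set, 37 and 33 were above the array median in replicates 1 and 2 of day 4, 36 and 33 on day 6, and 37 and 35 on day 8. The markers BGN, MGP and COL12A1 were below it on all 6 sorted arrays. In sorted bulk RNA, more cells of a type and more RNA per cell cannot be told apart, and the part of other cells in these differences was not tested.

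LUM and DCN, which encode small proteoglycans that bind collagen fibrils and are neighbours in the genome, were both members. LUM stood at 11.41 and 8.81 on day 4, 10.64 and 7.81 on day 6, 9.93 and 9.24 on day 8, and 10.35 and 10.29 on day 0. DCN stood at 8.41 and 6.51, 8.16 and 6.27, 7.22 and 6.70, and 7.04 and 7.06. In LUM both replicate 1 arrays of days 4 and 6 were above day 0 and both replicate 2 arrays were below it. The collagen genes parted: COL6A3 stood at 11.19 and 8.75 on day 4 and 10.58 and 8.64 on day 6, and COL1A1 at 11.48 and 9.47, and 11.61 and 10.29. COL1A2, whose product joins that of COL1A1 in type I collagen, differed by only -0.03 and 0.22, and COL3A1 by 0.62 and 0.89. TGFBI, a matrix adapter protein, differed by 2.18 and 1.69, POSTN, or periostin, by 2.40 and 1.17, and TAGLN, an actin-binding protein of smooth muscle, by 1.33 and 2.24. PDGFRA, a receptor of mesenchymal cells, differed by 1.41 and 1.35, and PDGFRB by 0.12 and 0.53. The 5 genes higher in replicate 2 at both days were the matrix genes TIMP3, with -0.37 and -1.33, COL5A2, FBN1 and LOXL1, and the calcium-binding protein gene S100A6, with -0.93 and -1.92. Averaged over all its probe sets, the mean difference of POSTN was 0.49 instead of 1.78, that of TAGLN 0.68 instead of 1.78, and that of DCN 0.95 instead of 1.90.

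Members higher in replicate 1 with the largest differences included further mesenchymal genes. IGFBP7, which encodes a secreted protein that binds insulin-like growth factors, had the largest mean difference in this direction. It stood at 10.29 and 6.71 on day 4, 10.63 and 7.25 on day 6, 9.33 and 8.73 on day 8, and 12.27 and 12.23 on day 0. PRRX1, a homeobox factor of mesenchyme, stood at 8.99 and 6.62, 9.49 and 6.35, 7.68 and 7.13, and 10.11 and 10.08. In both genes every sorted array was below day 0, replicate 2 of days 4 and 6 was lowest, and the day 8 arrays lay between. MMP1, an interstitial collagenase, differed by 1.71 and 3.18, ALCAM, an adhesion protein, by 1.49 and 2.97, and VSNL1, a neuronal calcium sensor, by 2.25 and 2.82. PLPPR5 and SLC1A6, a phospholipid phosphatase related protein and a glutamate transporter, differed by 1.56 and 3.06, and by 1.91 and 2.45. The mesoderm factor HAND1 stood at 9.73 and 7.73 on day 4, 9.01 and 7.34 on day 6, and 8.07 and 8.04 on day 8, and ACTC1, cardiac actin, differed by 1.96 and 1.30. OTX2, a factor of forebrain and of undifferentiated cells, stood at 8.07 and 6.11, 8.58 and 7.02, and 7.71 and 6.13, against 12.77 and 12.67 on day 0, and KLF4 differed by 1.74 and 1.36. The average over all probe sets gave smaller values, as IGFBP7 differed by 1.64 instead of 3.48, PRRX1 by 1.66 instead of 2.75, ALCAM by 1.23 instead of 2.23, SLC1A6 by 0.96 instead of 2.18, OTX2 by 0.90 instead of 1.76 and KLF4 by 0.84 instead of 1.55.

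**Figure D2:**
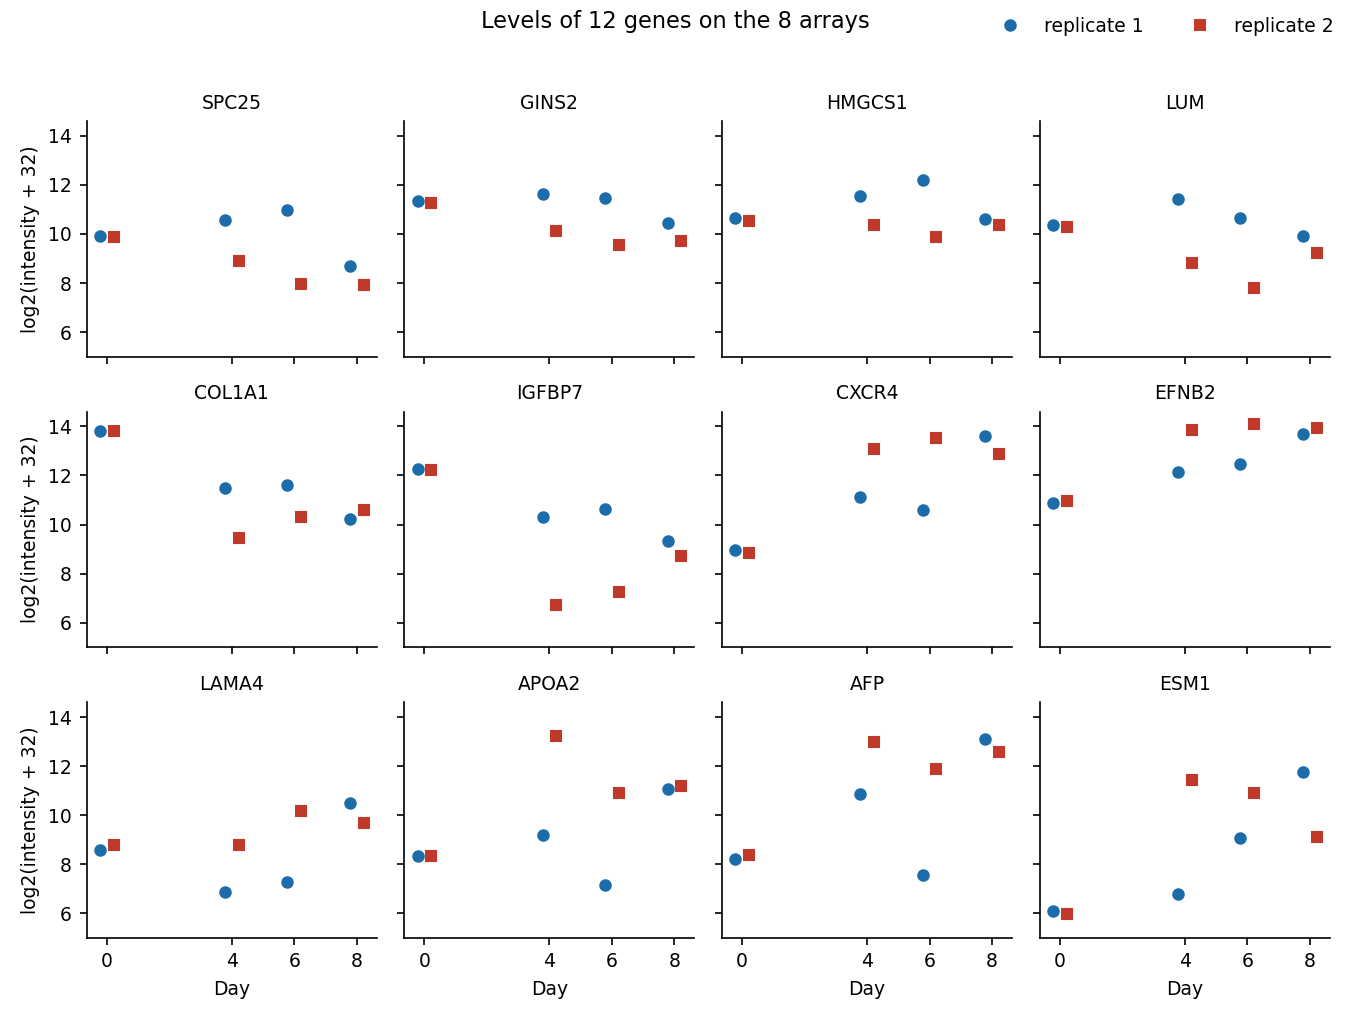
Levels of 12 genes on the 8 arrays, log2(intensity + 32) on the y axis and the day on the x axis, with 1 array per point, replicate 1 as circles and replicate 2 as squares. At day 0 the 2 arrays nearly coincide; at days 4 and 6 SPC25, GINS2, HMGCS1, LUM, COL1A1 and IGFBP7 are higher in replicate 1 and the other 6 genes in replicate 2; at day 8 the gap narrows in all but ESM1, whose arrays stand at 11.76 and 9.11.

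Genes of arterial identity and Notch signalling were higher in replicate 2. Of 28 genes kept, 20 were higher in replicate 2 at both days, 13 of them by 2-fold, beside 24.3% and 1.27% of all genes. In replicate 1, 3 were higher, namely SOX17, NOTCH2 and CXCL12, none by 2-fold, beside 44.3% and 1.91%. Of these, CXCL12 was above the array median on no sorted array. The medians of the list were -1.02 on day 4 and -1.48 on day 6. The summed intensity in units of 1000 was 37.3 and 92.0 at day 4, 35.3 and 111 on day 6, 93.2 and 77.9 on day 8, and 17.9 and 17.5 on day 0. Of 7 venous genes kept, 4 were higher in replicate 2 at both days and 2 in replicate 1, with medians of -0.11 and -0.06, and the list is too short to read its count of members against the 1.27% of all genes.

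Ligands and receptors of the pathway were among the members. DLL4, the Notch ligand of arterial endothelium, stood at 8.13 and 9.59 on day 4, 8.15 and 9.74 on day 6, 9.63 and 9.54 on day 8, and 7.47 and 7.4 on day 0. NOTCH1 stood at 10.84 and 11.85, 10.98 and 12.14, 11.73 and 12.01, and 9.48 and 9.49. In both genes the 2 replicate 1 arrays of days 4 and 6 lay between day 0 and the other 4 sorted arrays. NOTCH4, the endothelial receptor, differed by -0.84 and -2.56, the ligand JAG1 by -1.10 and 0.09, and NOTCH3 by -0.04 and -0.64. Of the direct target genes, HES4 differed by -1.36 and -1.60, HEY1 by -1.03 and -0.84, NRARP by -0.86 and -1.37, HEY2 by -0.61 and 0.28, and HES1 by -0.30 and 0.10. EFNB2, the ephrin that marks arteries, stood at 12.15 and 13.84 on day 4, 12.45 and 14.11 on day 6, and 13.69 and 13.93 on day 8. The gap junction genes GJA4 and GJA5 differed by -1.63 and -1.76, and by -1.46 and -2.41.

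DEPP1 and EPAS1 had the largest mean differences of the list. DEPP1, a target of FOXO factors, stood at 8.03 and 11.35 on day 4, 7.67 and 11.01 on day 6, 9.89 and 9.82 on day 8, and 7.57 and 7.83 on day 0. EPAS1, which encodes the hypoxia-inducible factor HIF-2 alpha, stood at 8.73 and 11.47, 8.81 and 11.95, 11.02 and 11.18, and 8.64 and 8.80. Replicate 1 of days 4 and 6 thus lay near the level of undifferentiated cells in both genes, and day 8 lay above it. CXCR4, the receptor for the chemokine CXCL12, stood at 11.11 and 13.10, 10.58 and 13.51, 13.60 and 12.89, and 8.96 and 8.83. UNC5B, a guidance receptor, differed by -2.27 and -2.89, VEGFC, a growth factor for lymphatic endothelium, by -1.65 and -3.87, and IGFBP3 by -1.22 and -3.28. The factor gene MECOM differed by -1.87 and -1.85. Over all probe sets of a gene, EPAS1 differed by -0.99 instead of -2.94 and DEPP1 by -1.98 instead of -3.33.

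Other endothelial genes were also higher in replicate 2, to a smaller extent. Of 33 endothelial genes kept, 25 were higher in replicate 2 at both days, 5 of them members, with medians of -0.43 and -0.64. Among all genes kept, 24.3% were higher there at both days and 1.27% were members. CLDN5, the endothelial tight junction claudin, stood at 10.25 and 11.69 on day 4, 9.07 and 12.12 on day 6, and 11.79 and 12.14 on day 8. PLVAP, the protein of fenestral diaphragms, stood at 10.35 and 11.86, 10.14 and 12.23, and 11.83 and 11.86. Both day 8 arrays stood with replicate 2 in these genes. CLEC14A differed by -1.51 and -1.96, FLT1, a receptor that binds vascular endothelial growth factor, by -1.96 and -1.47, and CD93 by -1.12 and -2.16. The 4 genes higher in replicate 1 at both days were FLI1, ERG, TAL1 and EDN1, the first 3 of them transcription factors of early endothelium and blood, at 0.17 and 0.39, 0.32 and 0.23, 0.68 and 0.41, and 0.47 and 0.98.

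Most genes of the basement membrane list were higher in replicate 2. Of 15 genes kept, 12 were higher in replicate 2 at both days, 3 of them members, beside 24.3% and 1.27% of all genes. The medians of the list were -0.81 and -1.21. LAMA4, the laminin chain of endothelial basement membranes, stood at 6.86 and 8.77 on day 4, 7.27 and 10.17 on day 6, 10.49 and 9.68 on day 8, and 8.56 and 8.77 on day 0. HSPG2, which encodes perlecan, stood at 9.48 and 10.92, 9.31 and 11.57, 11.02 and 11.00, and 9.08 and 8.82. COL4A1 differed by -1.06 and -1.65 and its partner COL4A2 by -0.85 and -1.87, and LAMA1, the embryonic laminin chain, was the 1 gene higher in replicate 1 at both days, with 0.38 and 1.47. Over all its probe sets LAMA4 differed by -0.60 instead of -2.40.

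Several genes of plasma proteins were higher in replicate 2. Of 29 kept genes of the list of endoderm and plasma proteins, 17 were higher in replicate 2 at both days, 9 of them by 2-fold. Among all genes kept these shares were 24.3% and 1.27%. In replicate 1, 6 were higher, with 0 by 2-fold, beside 44.3% and 1.91% of all genes. The medians of the list were -0.65 on day 4 and -0.29 on day 6, and that of the mean difference was -0.21. The 9 members were APOA2, FGA, AFP, APOB, AHSG, RBP4, FGB, TTR and FGG, all secreted proteins of yolk sac endoderm and liver. APOA2, an apolipoprotein of high-density lipoprotein, had the largest mean difference of all members and stood at 9.18 and 13.21 on day 4, 7.14 and 10.91 on day 6, 11.08 and 11.18 on day 8, and 8.32 and 8.32 on day 0. AFP, alpha-fetoprotein, stood at 10.84 and 12.99, 7.57 and 11.86, 13.12 and 12.56, and 8.19 and 8.37. Both genes were lower in replicate 1 of day 6 than at day 0. The fibrinogen chain genes FGA, FGB and FGG, which are neighbours in the genome, differed by -3.86 and -2.72, -2.51 and -1.96, and -1.48 and -1.75. APOB, the apolipoprotein of low-density lipoprotein, differed by -3.35 and -1.82, the fetuin gene AHSG by -1.68 and -3.06, and RBP4, the plasma carrier of retinol, by -2.55 and -1.95.

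The regulators and epithelial genes of the same list were mixed in direction. GATA6 and HHEX, factors of endoderm and of endothelium, differed by 0.71 and 1.00, and by 0.87 and 0.87, and KRT18 by 0.59 and 1.16. The regulator gene GATA4 was higher in replicate 2, with -1.50 and -0.28, whereas EPCAM differed by 0.11 and -0.44, and CDH1 by 0.11 and -0.09. The endoderm markers FOXA1, FOXA2, CER1 and APOA1 were below the array median on all 6 sorted arrays. Of 36 genes with a probe set, 26 were above it in both replicates of day 4, 18 and 26 on day 6, and 26 and 25 on day 8. The summed intensity of the list in units of 1000 was 20.0 and 42.8 at day 4, 15.5 and 18.04 on day 6, 28.9 and 22.3 on day 8, and 36.1 and 34.01 on day 0, where KRT18, EPCAM and CDH1 were brightest. The part of endoderm cells or their RNA in the plasma protein levels was not tested. Averaging the probe sets of a gene, FGA differed by -1.67 instead of -3.29, APOB by -1.44 instead of -2.58 and RBP4 by -1.19 instead of -2.25.

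**Figure D3:**
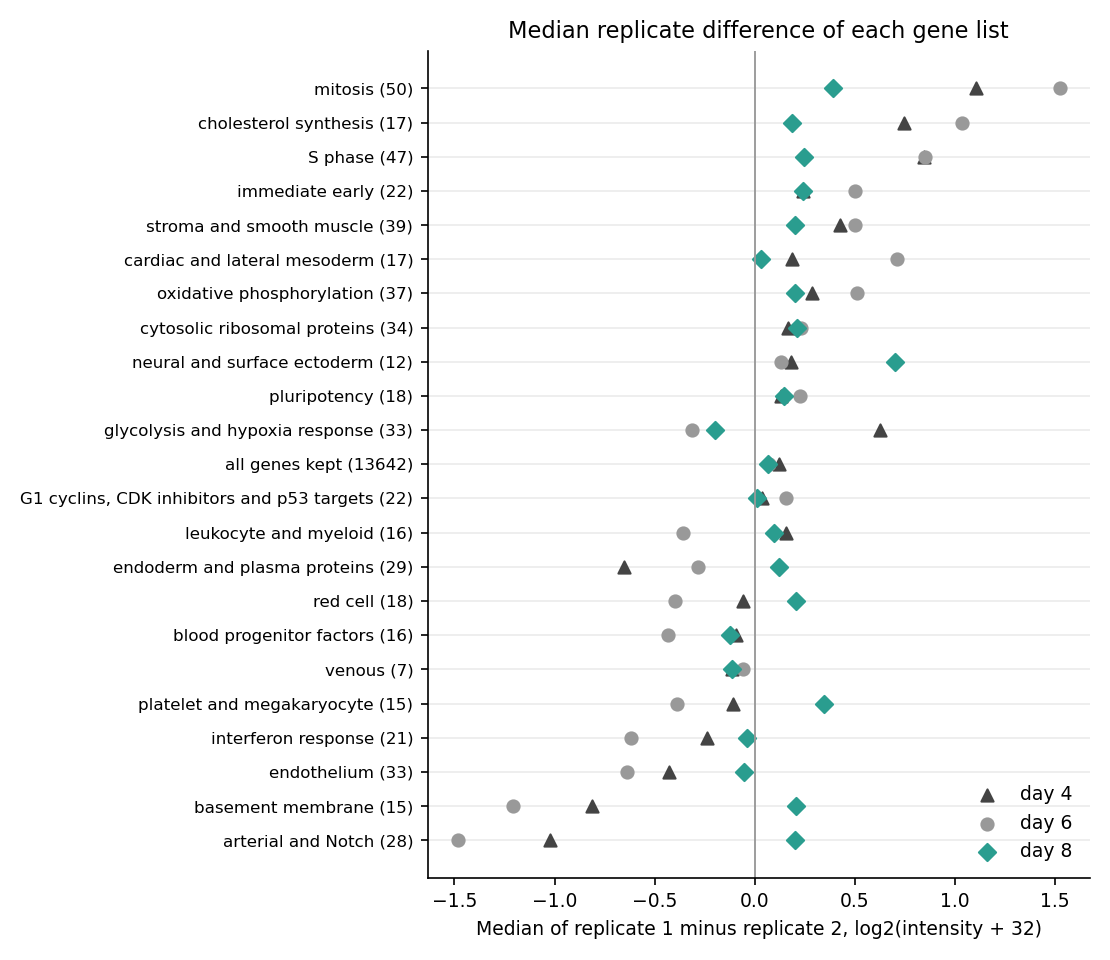
Median difference between replicate 1 and replicate 2 over the kept genes of each list (number in brackets) on the x axis, in log2(intensity + 32), at day 4 (triangles), day 6 (circles) and day 8 (diamonds), 1 pair of arrays each. The mitosis list stands highest at 1.11 and 1.52 and the arterial list lowest at -1.02 and -1.48, whereas at day 8 their medians are 0.39 and 0.20.

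Of the blood lists, 1 of 15 platelet, 1 of 16 leukocyte, 1 of 16 progenitor and 0 of 18 red cell genes kept were members higher in replicate 2, beside 1.27% of all genes, and lists this short do not allow a reading of that share. PF4, a platelet chemokine, stood at 7.80 and 9.15 on day 4, 7.30 and 9.22 on day 6, and 12.84 and 9.72 on day 8, so that its order was turned at day 8. SRGN, the granule proteoglycan serglycin, stood at 7.83 and 9.02, 7.31 and 10.03, and 10.99 and 9.22, with the same turn. MYB, a factor of blood progenitors, stood at 8.84 and 10.44, 8.89 and 10.62, and 9.93 and 10.49, with replicate 2 higher on each sorted day. Over all their probe sets, SRGN differed by -1.05 instead of -1.95 and MYB by -0.91 instead of -1.67. IFI6, an interferon-induced gene, differed by -2.31 and -1.0. It was the 1 member among 21 kept genes of the interferon list, beside 1.27% of all genes, and that list is also short. Of the 21, 12 were higher in replicate 2 at both days and 4 in replicate 1.

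Some members higher in replicate 2 were near the floor of the arrays on 1 side. PABPC4L, a poly(A)-binding protein gene, stood at 5.87 and 9.09 on day 4, 6.05 and 9.38 on day 6, 8.96 and 9.08 on day 8, and 5.92 and 5.98 on day 0. PSMD5, a chaperone of proteasome assembly, stood at 6.67 and 9.45, 6.49 and 9.63, 9.28 and 9.31, and 6.39 and 6.63. In both, replicate 1 of days 4 and 6 lay with day 0 below the array median, and all other arrays lay above it. This pattern of sides was searched for in all genes kept after these were seen. It held for 28 of the 13642 genes, of which 6 were members, beside 1.27% of all genes. The pattern itself fixes the direction at both days, so its share of members is not read as a result. In 5 genes the gap between the lowest bright and the highest dim array was at least 2-fold, which makes a gene a member by definition. They were PABPC4L with a gap of 2.91, PSMD5 with 2.61, GNA14 with 1.97, ZNF667-AS1 with 1.75 and QNG1 with 1.74. The mirrored pattern, with day 0 and replicate 1 above the median, held for 50 of the 13642 genes. Of these, 9 were members, beside 1.91% of all genes. This pattern likewise fixes the direction, and a gap of at least 2-fold makes a gene a member. Of the 50, 4 had a gap of at least 2-fold: ALPK2 with 1.06, PAPPA with 1.05, GREM1, a bone morphogenetic protein antagonist, with 1.01, and DEPDC7 with 1.01.

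Other probe sets of these genes gave mixed readings. A second probe set of GNA14, which encodes a G protein subunit, differed by -1.08 and -1.74. The other probe set of QNG1 differed by -1.79 and -0.24 and was bright on every array, between 10.02 and 11.82, and that of PSMD5 lay between 5.82 and 5.92 on every array. ZNF667, the neighbour of ZNF667-AS1, was a member with -1.04 and -1.26, and a second probe set of it differed by -0.66 and -0.80. With only the genes kept placed in genome order, 13605 pairs were adjacent. Of these, 10 pairs were members higher in replicate 1, among them OIP5 with NUSAP1, and 4 pairs in replicate 2. Genes not kept can lie between such pairs, and the number to expect from the sizes of the sets was not computed. The WDR72 gene was less sharply split, at 6.64 and 10.44 on day 4, 6.69 and 10.07 on day 6, 8.55 and 9.45 on day 8, and 9.08 and 9.20 on day 0, and PRDM16, a chromatin factor gene, stood at 6.97 and 9.71, 6.62 and 10.25, 9.08 and 9.02, and 7.36 and 7.20. Averaged over probe sets, WDR72 differed by -1.19 instead of -3.59, PRDM16 by -1.69 instead of -3.18, PSMD5 by -1.48 instead of -2.96 and QNG1 by -2.08 instead of -3.14.

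**Figure D4:**
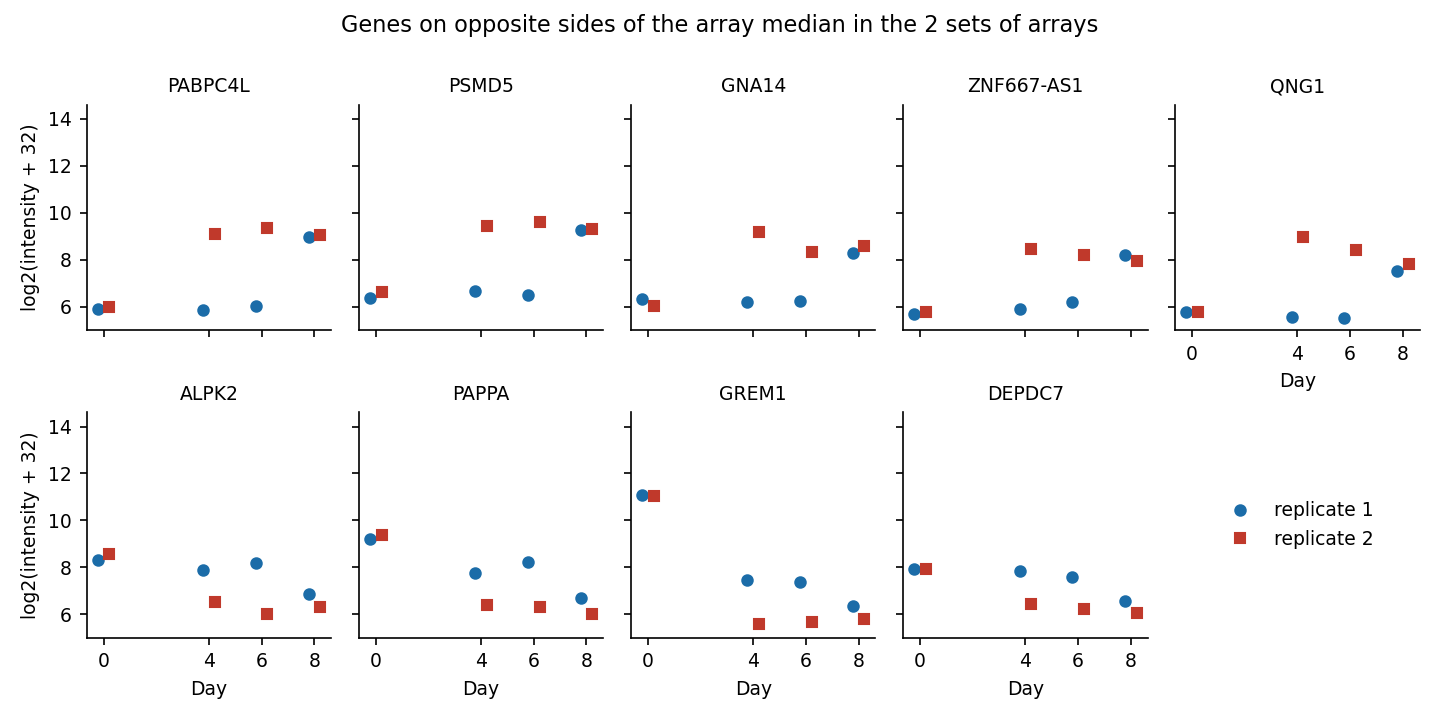
Levels of 9 members on the 8 arrays, log2(intensity + 32) on the y axis and the day on the x axis, 1 array per point, replicate 1 as circles and replicate 2 as squares. In the upper row replicate 1 of days 4 and 6 stands with day 0 and both day 8 arrays with replicate 2, with a gap of 2.91 in PABPC4L; the lower row shows the mirrored order, with gaps from 1.01 to 1.06.

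The day 8 arrays were placed on the axis formed by the mean difference of days 4 and 6 over all genes kept, on which replicate 1 averages 0.5 and replicate 2 averages -0.5 by construction. Day 4 stood at 0.49 and -0.43 and day 6 at 0.51 and -0.57. Replicate 1 of day 8 stood at -0.26 and replicate 2 of day 8 at -0.52, so both were on the side of replicate 2. Both day 0 arrays stood at 0.34. Array noise enters the axis and pulls arrays outside it toward 0, so these positions describe an order and not a size.

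On the axes of single lists, replicate 2 of day 8 was on the replicate 2 side for all 22 lists and replicate 1 of day 8 for 18 of them. The exceptions were pluripotency, where the 2 day 8 arrays stood at 1.21 and -0.63, neural and surface ectoderm at 0.51 and -0.51, immediate early genes at 0.19 and -0.44, and interferon response at 0.0023 and -0.12. The day 8 arrays stood at -0.33 and -0.64 on the mitosis axis, at -0.20 and -0.48 on the S phase axis and at -0.06 and -0.35 on the stroma axis. On the arterial axis they stood at -0.34 and -0.25, on the endoderm axis at -0.46 and -0.39, on the basement membrane axis at -0.59 and -0.55 and on the cholesterol axis at -0.22 and -0.38. For cell division and stroma, replicate 1 of day 8 was thus the nearer of the pair to replicate 1 of the earlier days, whereas for the arterial, endoderm and basement membrane lists the pair lay within 0.09 of each other.

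**Figure D5:**
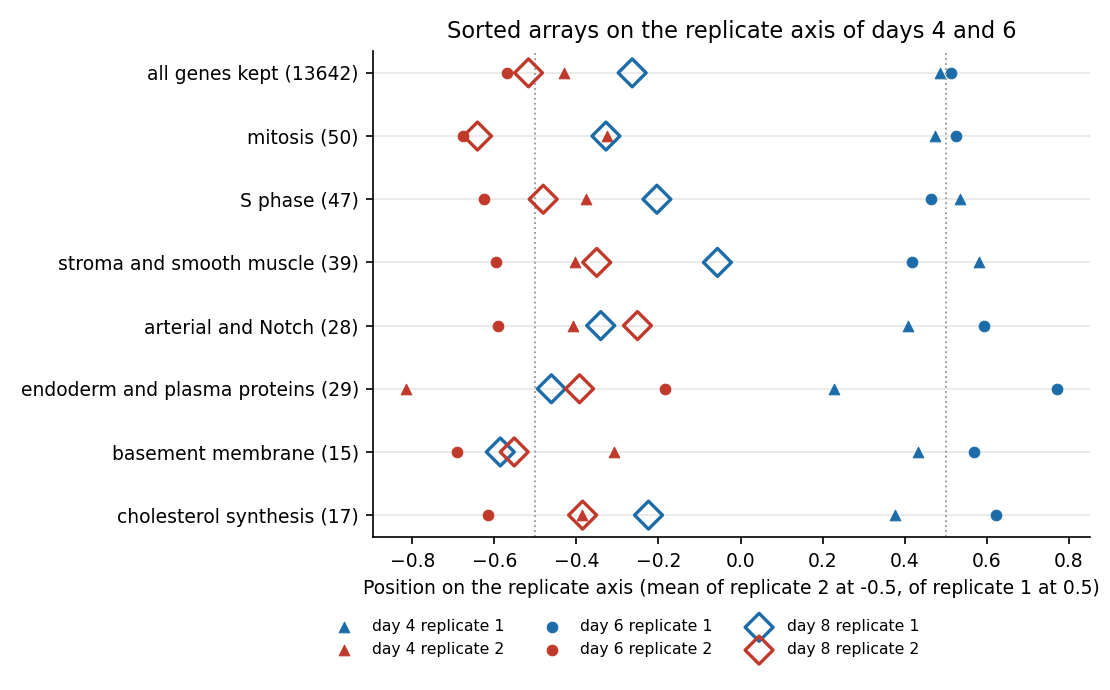
Position of the 6 sorted arrays on the replicate axis (x axis, no unit) over all genes and over single lists (number of genes in brackets), with filled triangles for day 4, filled circles for day 6, open diamonds for day 8, blue for replicate 1 and red for replicate 2. Over all genes and the 7 lists drawn, every day 8 array lies left of 0, at -0.26 and -0.52 over all genes.

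Counted by gene, 222 of the 260 members higher in replicate 1 had both day 8 arrays nearer to the replicate 2 mean, and 139 of the 173 higher in replicate 2 did. At day 0, both arrays were nearer to the replicate 1 mean for 176 of 260 and 119 of 173. These placements were not counted over all genes kept, so they cannot be read as particular to the members. At least 2-fold differences between the replicates of day 8 were fewer, as 187 genes (1.37%) were higher in replicate 1 and 37 genes (0.271%) in replicate 2. Among the 260 members, 235 were higher in replicate 1 of day 8 than in replicate 2, beside 8275 of all 13642 genes kept. By 2-fold, 24 of the 260 were higher there, beside 1.37% of all genes. The median of the 260 was 0.38 beside 0.07 over all genes kept. Among the 173, 104 were higher in replicate 2 of day 8 and 69 in replicate 1, with a median of -0.10. By 2-fold the counts were 7 and 6, beside 0.271% and 1.37% of all genes. At day 0, 0 genes (0.0%) were 2-fold higher in replicate 1 and 1 gene (0.00733%) in replicate 2.

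Each list was also set against day 8. Of the mitosis list 47 of 50 genes and of the S phase list 42 of 47 were higher in replicate 1 of day 8, with medians of 0.39 and 0.25, beside 8275 of 13642 genes in all. SPC25, at 8.70 and 7.91, was below both its day 0 levels on both arrays, as were NDC80 and NUF2. Of the arterial list 21 of 28 genes were higher in replicate 1 of day 8, with a median of 0.20. Over all genes kept the median was 0.07. The sign of the arterial median is the reverse of that at days 4 and 6. Day 8 medians of the stroma, basement membrane and ribosomal protein lists were alike, at 0.20, 0.20 and 0.21. The value at day 8 is thus not particular to arterial genes. The median of the endoderm list at day 8 was 0.12. The members with the largest differences at day 8 were, in replicate 1, PF4, the WNT modulator SFRP2 at 9.43 and 6.63, ESM1, the phosphatase gene PTPRZ1 at 8.29 and 5.84, and SLC16A14 at 8.93 and 6.70. ESM1, an endothelial tip cell gene, stood at 6.8 and 11.45 on day 4, 9.06 and 10.92 on day 6, and 11.76 and 9.11 on day 8, and SLC16A14 at 7.21 and 9.34, and 5.82 and 7.24, at days 4 and 6, so in both the order of the replicates was turned. In replicate 2 they were MASP1, a complement protease gene, at 8.34 and 9.62, POM121C, PRPF19, SH3TC1 and MALAT1. Averaged over all its probe sets, MASP1 differed at days 4 and 6 by -0.94 instead of -2.44.

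Controls of RNA quality also differed between the replicates. The 3′ to 5′ signal ratio of the ACTB control was 19.0 and 9.18 in replicates 1 and 2 of day 4, 31.0 and 16.0 on day 6, 9.91 and 15.1 on day 8, and 8.92 and 10.4 on day 0, and that of GAPDH was 2.22 and 2.15, 3.73 and 3.41, 2.41 and 3.08, and 1.71 and 1.91. A control at the 5′ end of 18S ribosomal RNA, which lacks a poly(A) tail, stood at 8.21 and 12.56 on day 4, 9.77 and 13.68 on day 6, 10.96 and 12.69 on day 8, and 11.79 and 11.64 on day 0. MALAT1, a nuclear RNA, stood at 10.45 and 14.28, 12.34 and 13.73, 12.53 and 13.74, and 13.88 and 13.80. Replicate 2 was the higher at each sorted day for this 18S control and for the MALAT1 probe set used, day 8 included. Most other MALAT1 probe sets had the same order on each sorted day. An exception was higher in replicate 1 on each sorted day, by 0.13 on day 4 and 0.31 on day 6. Another was higher in replicate 1 on day 8, at 10.03 against 9.59, and yet another was nearly level on day 4, at 9.05 and 9.04. The part of RNA quality or labelling in the replicate differences was not tested. Array medians lay between 88.8 and 93.3 intensity units.

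The contrast of days, which the rule did not use, was tested with limma and Benjamini-Hochberg adjustment over 13642 genes, and 0 genes (0%) were called between day 4 and day 6 at an adjusted p under 0.05, with 725 at an unadjusted p under 0.05. The p-values measure only the spread between these arrays. The 9 plasma protein genes named above were lower at day 6 than at day 4 in both replicates and did not pass the test. Day 6 minus day 4 was -2.04 and -2.30 in replicates 1 and 2 for APOA2 and -1.57 and -2.17 for RBP4, with limma adjusted p = 0.97 for APOA2 and 0.92 for RBP4. The spread between replicates that enters this test contains the differences described above.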

How the data were processed

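The authors deposited linear intensities on 54675 probe sets, made with MAS5 per the submitters' processing notes, with no version given there. Values reach down to 8.61 to 8.84 on each array, and no scaling was added. In the platform annotation 41097 probe sets had 1 gene symbol, 1801 several and 11777 none. Each gene was read by its brightest probe set, cross-hybridising ones (_x_at) being a last resort, which gave 19775 genes. The deposited values were transformed as log2(intensity + 32), so folds understate the difference of dim genes. The members, the 22 lists and the rule for named genes were chosen with earlier results of these data known. The rule names the 10 largest mean differences in each direction, up to 6 genes for each of 5 lists and 3 for the others, 4 genes on each side of the limit, the gate genes, and the 5 largest members at day 8 in each direction; other names were chosen after their values were seen. With 1 array per replicate and day, a difference has no replicate check. Days were compared with limma 3.58.1 in R 4.3.3 (1 term per group over 8 arrays, trended eBayes, two-sided). The scripts were tested on simulated data. Other offsets, filters, scalings, probe set rules and fold limits, leaving out each array and a replicate block were tried. A gene that the rule names is not reported here.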

Additional observations from a re-analysis of the deposited data

How the results depend on the processing

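No sign changed under the alternatives run for the day 8 positions over all genes, the medians of the mitosis, S phase, stroma, arterial and endoderm lists, and the mean differences of the genes named by rule, for which single days were not an alternative. By single day, the glycolysis median was 0.63 and -0.31, the leukocyte median 0.16 and -0.36, and NANOG differed by 0.26 and -0.06. The 260 members higher in replicate 1 became 141 with a 4 times larger offset, 143 with a gene's probe sets averaged, 405 counting every probe set, 1063 at 1.5-fold and 4 at 4-fold. The 173 higher in replicate 2 became 95 with probe sets averaged, 403 counting every probe set, 498 at 1.5-fold and 22 at 4-fold. Quantile normalization gave 206 and 197, or 51.1% higher in replicate 1 instead of 60.0%. The S phase median of 0.86 became 0.90 with an offset of 1, 0.72 with the larger one, 0.85 without a filter, 0.78 after quantile normalization, 0.90 after median centring, 0.79 with the mean of probe sets, and 0.85 from day 4 or day 6 alone. The stroma median of 0.48 became 0.64 with an offset of 1, 0.40 with the larger one and 0.26 with the mean of probe sets. The endoderm median of -0.21 became -0.71 above the 75th percentile, -0.50 with the mean of probe sets and -0.65 from day 4 alone. The cause was not tested. With a replicate block the day 4 to day 6 test called 0 genes over 4, 6 or 8 arrays, with a smallest adjusted p of 0.108 over 4. The labels give the groups equal numbers without saying what they share, and day 4 and day 6 deviate together while day 8 does so less (r = 0.19 and 0.41). Leaving out 1 array gave 0 to 1 calls, the 1 call without replicate 2 of day 6. The number of arrays limits the precision, and dim genes have compressed differences.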

Other observations

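Some genes parted the replicates at 1 day only. HBE1, embryonic globin, stood at 7.68 and 8.03 in replicates 1 and 2 of day 4, 7.59 and 11.97 on day 6, and 13.13 and 12.66 on day 8, and HBZ, the embryonic zeta globin, at 6.58 and 6.22, 6.27 and 8.36, and 9.77 and 8.08. Replicate 2 of day 6 thus stood nearer to day 8 in both globins, and replicate 1 of day 6 at the day 4 level. ACKR3, a scavenger receptor for CXCL12, differed by 0.07 on day 4 and -2.99 on day 6, and FLT4, the receptor for VEGFC, by -0.08 and -2.21. In the other direction LHX1, a factor of intermediate mesoderm, stood at 9.79 on replicate 1 of day 6 and between 6.76 and 7.28 on the other 7 arrays. At day 4 only, BNIP3 and ANKRD37, both targets of hypoxia-inducible factors, differed by 1.91 and 1.88, against -0.37 and -0.37 on day 6. The list of glycolysis and hypoxia response, with 33 genes, had medians of 0.63 on day 4 and -0.31 on day 6.

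Of the largest replicate differences of day 8, some were small or opposite at days 4 and 6, and others had the same direction there. In replicate 1 of day 8, LYZ, or lysozyme, stood at 11.22 against 7.99 in replicate 2, MPO, or myeloperoxidase, at 9.80 against 6.86, and CLEC1B, a platelet receptor gene, at 11.12 against 7.38. On the day 4 and day 6 arrays LYZ lay between 7.32 and 7.87 and MPO between 6.92 and 7.08. The neural and pluripotency factor SOX2 stood at 9.31 and 6.14 on day 8, beside 12.90 and 12.92 on day 0, and ZIC2 at 9.15 and 6.39, beside 12.56 and 12.40. At days 4 and 6, SOX2 already differed in this direction by 1.08 and 0.51, and ZIC2 by 1.51 and 0.99. Of 12 genes of the neural and surface ectoderm list, 11 were higher in replicate 1 of day 8, with a median of 0.70. Among all genes kept, 8275 of 13642 were higher there, with a median of 0.07. ZMAT3, a target of p53, stood at 7.97 and 10.45 on day 8, and differed in the same direction by -2.57 on day 4 and -0.57 on day 6.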
